A study of Bos taurus with 6 samples.

Results

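Notch receptors, ligands and targets were examined in cultured bovine granulosa cells (GC) by array measurement of total RNA. The list held 10 genes, the receptors *NOTCH1*, *NOTCH2* and *NOTCH3*, the ligands *JAG1*, *JAG2*, *DLL1* and *DLL4*, and the targets *HES1*, *HEY1* and *HEY2*. Members were the transcript clusters, the array's unit for a gene, whose gene symbol equalled a listed name. This gave 9 of 26773 transcript clusters, 1 for each gene except *NOTCH3*, which no symbol matched and which was not analysed here. The 6 cultures were primary GC plated at normal density (n = 3) or at high density (n = 3), with 1 array each. For 9 days all of them received FSH, IGF-1 and androstenedione in a medium without serum. No culture was kept without these hormones, and by the labels the density of plating was the only difference in treatment. The cells had been aspirated from small to medium sized follicles of abattoir ovaries, frozen, and used as pools from many cows of undefined cyclicity. The sources used here do not state whether the same pool was plated at both densities, so the p-values measure the spread between these cultures only.

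Notch signaling acts between cells that touch each other. A ligand of the Jagged or Delta-like family on one cell binds a Notch receptor on its neighbour, and the receptor is then cut within the membrane by gamma-secretase. The released intracellular part enters the nucleus, joins the DNA-binding protein RBPJ and a Mastermind-like coactivator, and switches on target genes such as those of the HES and HEY families, which encode transcriptional repressors. In the mammalian ovary, JAG1 and NOTCH2 are known for their part in the formation and growth of follicles, with *NOTCH2* as a main receptor of GC.

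Signals are given on the log2 scale as deposited, after the authors' RMA procedure, and changes are log2 differences, high minus normal density. The background level was taken as 4.62, the 95th percentile of the signals of 82 reporter control rows. Tests were made with limma over all transcript clusters, and a gene is termed called when its fold change (FC) exceeded 1.5 with a p-value and a false discovery rate (FDR, Benjamini-Hochberg) below 0.05. Array medians were between 4.34 and 4.43. High density replicate 2 stood apart from the other cultures on the second principal component of all signals, with a score of −29.1 where the others lay between −0.07 and 13.6. Signals of different transcript clusters depend on their probes, so changes were compared between cultures and genes were not ranked by level. The background level and the summed marker signals do combine different probes and are rough guides only.

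Of the 9 members, *JAG1* was called as up-regulated at high density and none was called as down-regulated. Over the whole table, 3.97% of the transcript clusters were called up and 3.51% down. *DLL1* and *NOTCH2* passed the FDR threshold with changes below the FC threshold, and *HEY2* narrowly missed the FDR threshold. Together 3 of 9 passed the FDR threshold at any size, 2 upward and 1 downward, beside 19.1% of the table, with 8.64% upward and 10.4% downward. Without adjustment 5 of the 9 had a p-value below 0.05, 3 of them higher and 2 lower at high density, against 32.3% of all transcript clusters. The groups did not overlap for *JAG1* and *DLL1*, both higher at high density, and for *NOTCH2* and *HEY2*, both lower, which are 4 of 9 beside 37.3% of the table, with 17.8% higher and 19.5% lower. The median change of the members was 0.01 and that of all transcript clusters was 0.02.

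**Figure D1:**
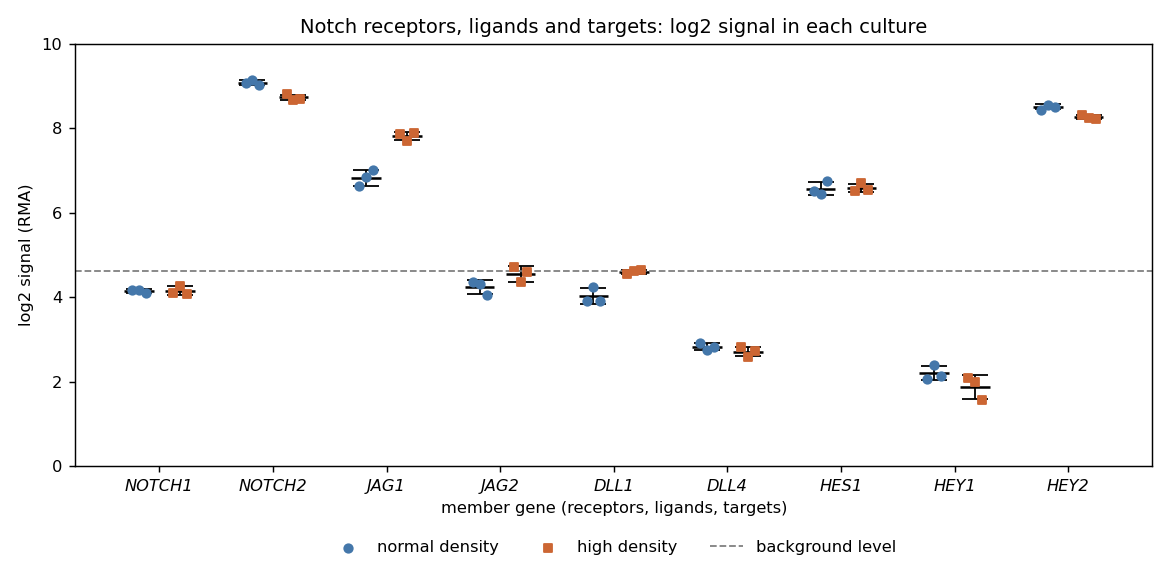
Log2 signal of the 9 measured Notch genes in each culture, with normal density as circles and high density as squares. Bars give mean and SD of 3 cultures, and the dashed line is the background level of 4.62. The *JAG1* cultures at high density, 7.70 to 7.88, all lie above those at normal density, 6.64 to 7.02, and 5 genes have both means below the line.

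*NOTCH2* (transcript cluster 12838286), the receptor with a clear signal, gave 9.07, 9.14 and 9.04 in the normal density cultures and 8.81, 8.68 and 8.71 at high density. Every high density culture lay below every normal density culture, and both groups were far above the background level. The means were 9.08 ± 0.05 and 8.73 ± 0.07 (SD, n = 3), a log2 change of −0.35 (SE, the standard error, 0.07, FDR 0.0143 by limma). In linear terms the ratio of high to normal density was 0.785, with a 95% confidence interval from 0.698 to 0.882. This is below the FC threshold of 1.5, so *NOTCH2* was not called. The adjusted p rose to 0.0662 without normal density replicate 2, to 0.0548 without normal density replicate 1 and to 0.0526 without high density replicate 3.

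*NOTCH1* (12708347) encodes the receptor best known from T cells and vessels. Its signals were 4.19, 4.18 and 4.09 at normal density and 4.12, 4.28 and 4.09 at high density, so the groups overlapped. All 6 values were below the background level. The log2 change was 0.01 (SE 0.08, 95% confidence interval −0.18 to 0.19, FDR 0.964 by limma), and its sign depended on the setting. *NOTCH4* (12803095), the receptor known from endothelium and not one of the members, was likewise below the background level, with means of 3.70 ± 0.18 and 3.73 ± 0.11 (SD, n = 3).

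Of the 4 member ligands *JAG1* (12721237), which encodes a Jagged ligand, had the largest rise. Its signal was 6.64, 6.84 and 7.02 in the normal density cultures and 7.87, 7.70 and 7.88 in the high density cultures. All of these values were above the background level, and the highest normal density culture lay well below the lowest high density culture. Means of 6.83 ± 0.19 and 7.82 ± 0.10 (SD, n = 3) gave a log2 change of 0.99 (SE 0.11, FDR 9.91e-04 by limma). The FC was 1.98, with a 95% confidence interval from 1.66 to 2.37, and the rise held rank 435 among the 26773 transcript clusters. *JAG1* was called in all 14 alternative settings, including those without any single culture, with log2 changes between 0.89 and 1.08. In RNA from whole cultures, more cells that express a gene and more RNA per cell cannot be told apart.

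*DLL1* (12901622), a Delta-like ligand, had signals of 3.91, 4.25 and 3.92 at normal density and 4.55, 4.61 and 4.64 at high density. The groups did not overlap, and normal density replicate 2 was the highest of its group. Both means, 4.03 ± 0.19 and 4.60 ± 0.05 (SD, n = 3), were below the background level, which limits how well the change can be measured. The log2 change was 0.58 (SE 0.10, FDR 0.00842 by limma), an FC of 1.49, just under the threshold. Without normal density replicate 2 the log2 change was 0.69 and *DLL1* was called, and it was also called without high density replicate 1, at 0.60. Whether *DLL1* was called therefore depended on single cultures.

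*JAG2* (12792634), the second Jagged ligand, gave 4.36, 4.31 and 4.06 at normal density and 4.71, 4.36 and 4.60 at high density. High density replicate 2 lay within the range of the normal density cultures. Both means were below the background level, with a log2 change of 0.31 (SE 0.12, 95% confidence interval 0.03 to 0.60, FDR 0.119 by limma). Without high density replicate 2 the change was 0.41 with an adjusted p of 0.0365, still under the FC threshold.

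*DLL4* (12689684), the ligand known from sprouting vessels, was measured at 2.91, 2.75 and 2.82 at normal density and at 2.83, 2.60 and 2.72 at high density. Its groups overlapped and all values were far below the background level. The log2 change was −0.11 (SE 0.09, 95% confidence interval −0.31 to 0.09, FDR 0.415 by limma), and −0.05 without high density replicate 2 and −0.07 without normal density replicate 1.

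**Figure D2:**
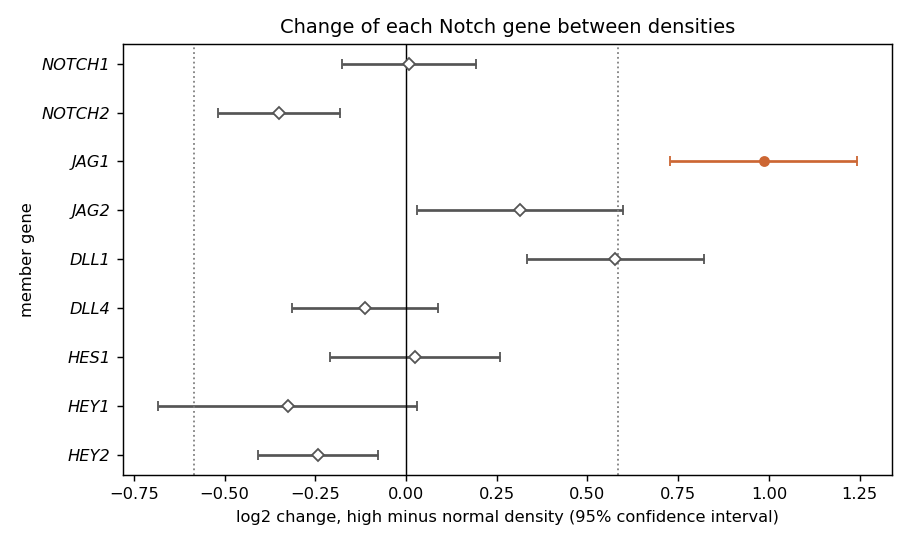
Log2 change of each member, high minus normal density, with its 95% confidence interval from limma (n = 3 per density). The filled circle marks the called gene, open diamonds the others, and dotted lines an FC of 1.5 in either direction. Only the interval of *JAG1* lies wholly beyond a dotted line, and those of *NOTCH2*, *JAG2*, *DLL1* and *HEY2* exclude 0 without adjustment for multiple testing.

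None of the 3 target members was called by limma, and 1 of them had an unadjusted p below 0.05. *HES1* (12686304), a widely used target of Notch signaling, had signals of 6.51, 6.45 and 6.74 at normal density and 6.53, 6.71 and 6.54 at high density. All were above the background level, and the high density values lay within the range of the normal density values. The log2 change was 0.03 (SE 0.10, FDR 0.893 by limma), with a 95% confidence interval from −0.21 to 0.26 that excludes an FC of 1.5 in either direction. The sign of this small difference depended on the setting, and its values were between −0.03 and 0.11.

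*HEY2* (12901117), a target with a clear signal in GC, gave 8.45, 8.57 and 8.52 at normal density and 8.33, 8.24 and 8.23 at high density. Every high density culture was below every normal density culture. The log2 change was −0.24 (SE 0.07, 95% confidence interval −0.41 to −0.08) and the linear ratio 0.845, with an adjusted p of 0.0526 from limma. This value lay close to the threshold, and over the alternative settings the adjusted p was between 0.0196 and 0.178.

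*HEY1* (12724359) was measured at 2.08, 2.40 and 2.14 at normal density and at 2.09, 1.99 and 1.56 at high density. High density replicate 3 was the lowest, replicate 1 lay within the range of the normal density cultures, and all values were far below the background level. The log2 change was −0.33 (SE 0.15, FDR 0.190 by limma). Without high density replicate 3 the change was −0.17, and with group values by Tukey's biweight, a setting chosen after seeing the data, −0.12. At such signals a change in *HEY1* could not be resolved.

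Pairs of related members were also compared within each array, which shows whether both changed by the same amount. *JAG1* minus *JAG2* was 2.28, 2.53 and 2.96 at normal density and 3.16, 3.34 and 3.28 at high density, a mean difference of 0.67. *DLL1* minus *DLL4* was 0.99, 1.49 and 1.10 at normal density and 1.72, 2.01 and 1.92 at high density, a mean difference of 0.69. For both pairs the groups did not overlap. The two-sided p from exact permutation of the density labels was 0.1 for each, which is also the lowest value this design can reach, and 0.15 after Benjamini-Hochberg adjustment over the 3 pairs tested. *HES1* minus *HEY1* overlapped between densities, with a mean difference of 0.35 (two-sided exact permutation test, p = 0.2, adjusted 0.2), and rests on a *HEY1* signal below the background level. The same limit holds for *JAG2*, *DLL1* and *DLL4*.

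**Figure D3:**
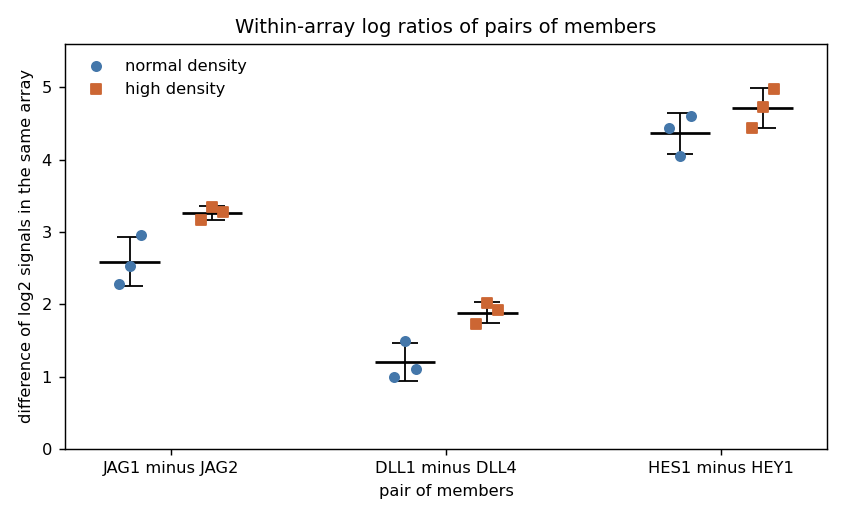
Differences of the log2 signals of paired members in the same array, by culture, with mean and SD (n = 3 per density). The *JAG1* minus *JAG2* values at high density, 3.16 to 3.34, lie above those at normal density, 2.28 to 2.96, and the *HES1* minus *HEY1* values overlap.

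Of 61 other genes of the pathway 59 were found on the array, in 60 transcript clusters, of which 3 were called up and 5 down. This is 13.3%, beside 7.49% of all transcript clusters. Their median log2 change was −0.07. In 11 of the 60, both group means were at or below the background level, against 51.2% of all transcript clusters. The shares called therefore come from sets of unlike signal, and no excess of calls can be read from them. Among all transcript clusters with a mean above that level, the median log2 change was −0.05. *EP300* and *KAT2B* had no matching symbol.

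Among the other ligands the strongest change of the pathway was found. *DNER*, a transmembrane protein with EGF repeats that binds Notch and is best known from neurons, rose from 4.66, 4.62 and 4.21 to 6.17, 6.56 and 6.28. The change was 1.84 (SE 0.15, FDR 2.55e-04 by limma), an FC of 3.58, from a normal density mean below the background level. *DLL3*, an atypical Delta-like ligand that does not activate receptors on neighbouring cells, changed by 0.30 (SE 0.07, FDR 0.0226 by limma) with all signals below the background level and was not called. *DLK1* and *DLK2*, non-canonical ligands, had log2 changes of 0.23 and 0.10 with overlapping groups. Both depended on single high density cultures. Without replicate 1 they were 0.10 and 0.04, and without replicate 2 they were 0.40 (FDR 0.0258 by limma) and 0.18.

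None of the 5 enzymes that add or extend sugars on Notch (*POFUT1*, *POGLUT1*, *LFNG*, *MFNG* and *RFNG*) was called by limma, and 2 of them had an unadjusted p below 0.05. Their log2 changes were between −0.23 and 0.08. The 9 genes of receptor cleavage, *FURIN*, *ADAM10*, *ADAM17* and the 6 gamma-secretase genes, were not called either. All of these 9 had signals above the background level. Their log2 changes were between −0.36 and 0.11, and 8 of the 9 were negative, as were those of 46.4% of all transcript clusters. That share includes transcript clusters below the background level. Those with a mean above it had a median log2 change of −0.05, so negative changes were more common among them. *APH1A*, a gamma-secretase subunit, passed the FDR threshold with a log2 change of −0.36 (SE 0.07, FDR 0.0116 by limma), below the FC threshold. The unadjusted p was below 0.05 for 4 of the 9.

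The list of endocytosis and turnover, with 12 genes, held 3 called falls, beside 3.51% of the table, and no called rise. A mean above the background level was reached by 10 of the 12, a larger share than in the table. *DTX3L*, a ubiquitin ligase of the Deltex family known mainly for its action with PARP9 in interferon and DNA damage responses, had a log2 change of −1.12 (SE 0.08, FDR 1.14e-04 by limma). Its signals were 6.17, 6.19 and 6.10 at normal density and 5.09, 5.07 and 4.92 at high density. *DTX4*, another Deltex family member, fell by 0.91 on the log2 scale (SE 0.10, FDR 8.23e-04 by limma). *FBXW7*, which marks the Notch intracellular domain and also MYC and cyclin E for degradation, fell by 0.65 (SE 0.07, FDR 7.93e-04 by limma) to a high density mean below the background level. *DTX1*, the Deltex gene best known as a Notch target and regulator, passed the FDR threshold in the other direction, with a log2 change of 0.29 (SE 0.07, FDR 0.0310 by limma), below the FC threshold and with all signals below the background level.

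In the nuclear complex the Mastermind-like coactivators moved apart. *MAML3* rose from 6.65 ± 0.07 to 7.43 ± 0.07 (SD, n = 3), a log2 change of 0.78 (SE 0.07, FDR 5.09e-04 by limma). *MAML2* fell from 6.52 ± 0.05 to 5.88 ± 0.09, a log2 change of −0.63 (SE 0.08, FDR 0.00130 by limma), and *MAML1* had a change of −0.06. The call of *MAML2* was lost without high density replicate 3, at −0.58. *RBPJ*, the DNA-binding partner of all Notch receptors, had means of 8.51 ± 0.03 and 8.50 ± 0.11 (SD, n = 3) and a 95% confidence interval of its log2 change from −0.19 to 0.18. *KAT2A*, an acetyltransferase, has a pair of transcript clusters. The one above the background level had a log2 change of −0.49 with an adjusted p of 0.00376 from limma, and the other of 0.06. Of the 12 corepressor genes none was called by limma. *SPEN*, which encodes a corepressor that binds RBPJ, passed the FDR threshold with a log2 change of −0.26, and 6 of the 12 had an unadjusted p below 0.05.

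**Figure D4:**
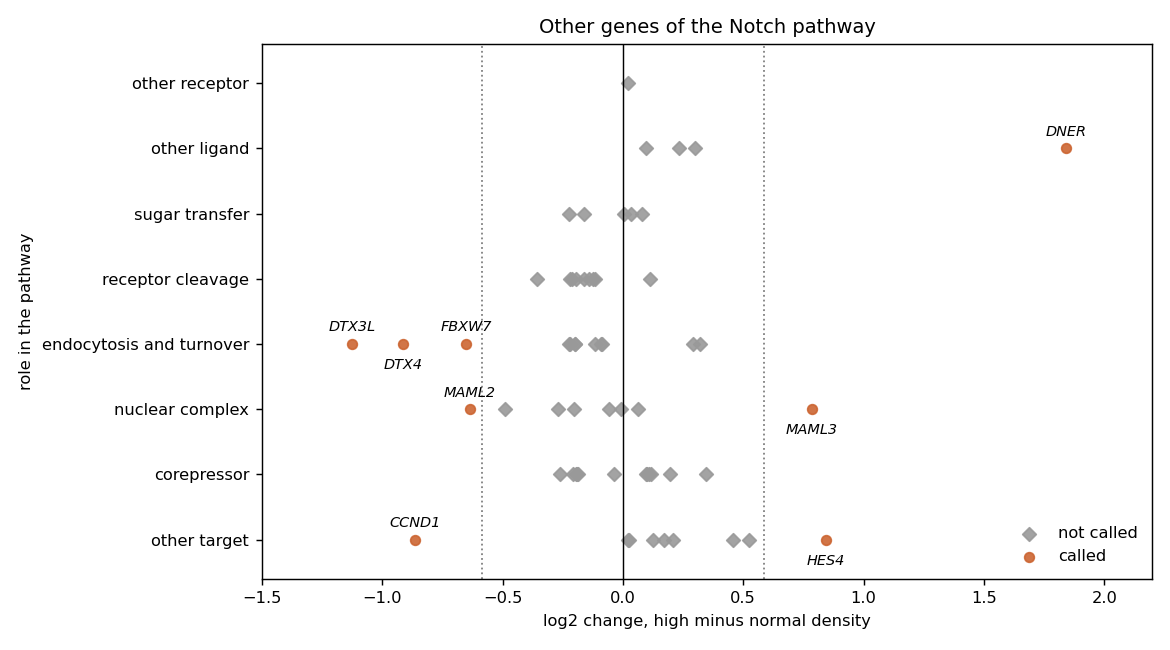
Log2 change, high minus normal density, of the other genes of the pathway by role, 1 point per transcript cluster. Circles with names are the 8 called genes, diamonds the others, and dotted lines an FC of 1.5. *DNER* lies far to the right, at 1.84, while the genes of receptor cleavage lie between −0.36 and 0.11.

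Of the 9 other targets 1 was called in each direction, beside 3.97% of the table up and 3.51% down. *HES4*, a repressor of the HES family, had signals of 5.26, 5.02 and 4.98 at normal density and 5.96, 5.68 and 6.16 at high density, a log2 change of 0.84 (SE 0.14, FDR 0.00529 by limma). *CCND1*, the gene of cyclin D1, which many other pathways control as well, fell from 5.27, 5.33 and 5.50 to 4.56, 4.23 and 4.73, a change of −0.86 (SE 0.13, FDR 0.00448 by limma), with a high density mean that was itself below the background level. *HEYL*, the third HEY gene, was higher at high density without overlap, with a change of 0.52 (SE 0.14, FDR 0.0345 by limma), below the FC threshold and with all signals below the background level. It was called without normal density replicate 3, at 0.65. *HES7*, a repressor of the segmentation clock, overlapped between densities with a change of 0.46, and was called without high density replicate 2, at 0.71, while it was 0.24 without high density replicate 1. *NRARP*, a feedback inhibitor of Notch, changed by 0.12, *MYC* by 0.03, *HES2* by 0.21, *HES5* by 0.02 and *HES6* by 0.17, with overlapping groups for each. *HES2* was at 0.40 without high density replicate 2 (FDR 0.0398 by limma) and at 0.03 without high density replicate 1.

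Since Notch genes are also expressed by other cells of the follicle wall, markers of those cells were read beside the members. Aspiration of follicular fluid, by which the GC were collected, is described in the methods as leaving theca cells behind. The GC label was checked with 11 genes, among them *FOXL2*, *INHA* and *HSD3B1*, and each was above the background level in at least 1 density. At high density 6 of them were called down, including *FSHR*, *CYP19A1* and *INHA*, and none up. All 7 leukocyte and all 6 oocyte markers were at or below the background level in both densities and none was called by limma, with 2 and 1 of them at an unadjusted p below 0.05. The same level was not reached by 9 of 12 endothelial markers, including *PECAM1*, *CDH5*, *KDR*, *TEK* and *TIE1*. Of these, *KDR* passed the FDR threshold upward (0.48, FDR 0.0275 by limma) and *TEK* downward (−0.36, FDR 0.0303 by limma), both under the FC threshold. *VWF* (means 5.39 and 5.70) and *EGFL7* (4.75 and 5.02) were above the background level in both densities and did not pass the FDR threshold. *CLDN5* was called up, with a log2 change of 2.81. Of 7 mural cell markers *ACTA2* (1.15), *PDGFRB* (0.94) and *CSPG4* (0.72) were called up, *MYH11* was called down (−0.67), and the means of *MYH11* and *RGS5* were below the background level in both densities. Of 5 theca markers *INSL3* was called up, at 1.82, and *CYP17A1* and *GLI1* were below the background level in both densities. *NR2F2* (means 6.47 and 6.40) and *PTCH1* (6.03 and 6.33) were above it in both. *PTCH1* passed the FDR threshold with a log2 change of 0.31 (FDR 0.0284 by limma), under the FC threshold, and *NR2F2* changed by −0.07.

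The summed linear signal of the mural markers was between 339 and 368 in the normal density cultures and between 580 and 647 in the high density cultures. Most of this rise came from *ACTA2* (log2 means 6.98 and 8.13) and *PDGFRB* (6.71 and 7.66). Of the 7 mural markers, 5 had a positive change and 2 a negative one. *MCAM*, above the background level in both densities, had a log2 change of −0.37 (FDR 0.0257 by limma), below the FC threshold. For the endothelial markers the sums were 164 to 166 and 327 to 364, of which *CLDN5* made up most of the difference. Without it they were 135 to 143 and 145 to 162, and the median log2 change of the 12 markers was 0.10. For the theca markers the sums were 311 to 341 and 667 to 775, and without *INSL3* they were 169 to 187 and 183 to 192, with a median log2 change of the 5 markers of 0.11. The median log2 change of the mural markers was 0.50. The part of the mural markers, *CLDN5* and *INSL3* in the changes of *JAG1* and *DLL1* was not tested.

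As a description, the transcript clusters with a symbol whose signals over the 6 arrays correlated most with those of *JAG1* were *GOLGA7* (Pearson r = 0.999), *SRD5A1*, the gene of a steroid 5-alpha-reductase (r = 0.998), and *KCNMA1*, the gene of a potassium channel (r = 0.998). The change of *SRD5A1* was 0.84 and that of *KCNMA1* 0.97, and both were called, while that of *GOLGA7* was 0.33. With 3 cultures at each of 2 densities, such a correlation mostly reflects the difference between the groups, and 1773 transcript clusters had an r above 0.9 with *JAG1*.

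**Figure D5:**
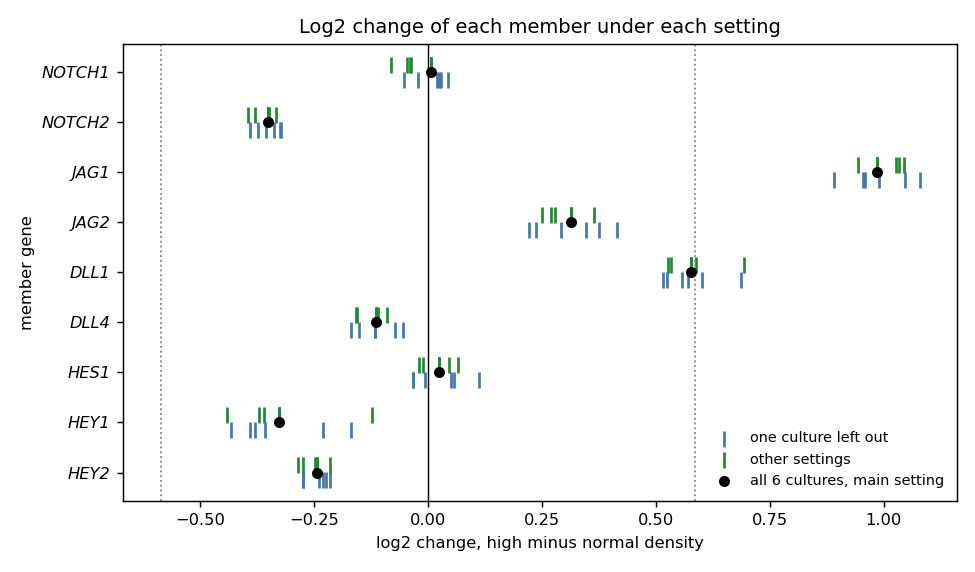
Log2 change of each member, high minus normal density, with all cultures (points), with 1 culture left out (lower ticks) and under other settings (upper ticks). Dotted lines mark an FC of 1.5. *JAG1* stays between 0.89 and 1.08, *DLL1* lies on both sides of the line, and *NOTCH1* and *HES1* lie on both sides of 0.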

How the data were processed

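Arrays of the bovine Gene ST type were read for 6 GC cultures, 3 per density. The deposited log2 signals are the authors' own RMA output from Expression Console, in which background was reduced, arrays were normalized and probes summarized per gene. The genome build is not given in the sources used here. The table of 26773 transcript clusters was used whole, with no further normalization and 0 columns of other samples. It gives no coordinates or sequences. Symbols were matched exactly, and *NEURL1* by its older symbol in RefSeq's gene table.

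The comparison of densities used lmFit and eBayes of limma 3.58.1 (R 4.3.3) without a covariate, and FDR values are Benjamini-Hochberg adjusted p-values over the whole table. The members and lists were chosen with earlier results of these data known. Named are all members, every called gene of the lists, other receptors, ligands and targets, and the 3 patterns most like each called member. Other genes named, such as *DTX1*, *APH1A*, *MAML1*, *RBPJ*, *KAT2A* and *SPEN*, were chosen after their values were seen. Alternatives were other variance models, weights, scalings, a filter at the background level, the methods' t-test, the replicate number as a block, and leaving out each culture. Group values by Tukey's biweight (tuning constant 5) were added after the data were seen. In simulated data with 200 of 26773 transcript clusters changed, limma recovered 84% of log2 changes of 1 and 98% of those of 2, with 2 false calls. Plots were made in Python 3.11.15 (matplotlib 3.10.9). The number of arrays limits the precision.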

Additional observations from a re-analysis of the deposited data

How the results depend on the processing

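The call of *JAG1* and the absence of a called fall among the members held in all 14 alternatives. The number of members called up was 1 or 2, and the second was always *DLL1*. It was 2 with array weights (*DLL1* at 0.59), with Tukey's biweight (0.69) and 1 to 2 when any single culture was omitted, where the log2 change of *DLL1* was between 0.52 and 0.69. The filter at the background level removed 5 members, *NOTCH1*, *JAG2*, *DLL1*, *DLL4* and *HEY1*, and gave no value for them. By the methods' t-test *DLL1* had an adjusted p of 0.0528. The other pathway genes called were between 2 and 4 up and between 4 and 5 down. *HES4* lost its call by the methods' t-test (adjusted p = 0.0525), and *MAML2* with Tukey's biweight, at −0.56. *MYH11* lost its call without normal density replicate 2, at −0.58. The direction of the paired member differences held in all alternatives run for them.

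Replicate numbers gave no clear sign of pairing the cultures. Deviations of same-numbered cultures from their group means correlated at 0.05, −0.05 and −0.04, and 2 of 6 cultures correlated best with their own number. These were replicate 1 of each density, while replicates 2 and 3 matched best crosswise. With 3 cultures per density, and high density replicate 2 standing apart, this cannot show whether a pool was shared. With the replicate number as a block the members called were again 1 up and 0 down, and the whole table had 2020 calls in place of 2005. Signals near the background level limit what can be measured for 5 of the 9 members.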
